A study of Drosophila melanogaster with 8 samples.

Results

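Cadherins and fasciclins are among the adhesion proteins by which ovarian cells hold on to each other. The 9 genes described here were picked by name: shg, CadN, CadN2, Cad99C, Cad74A, ft and ds for the cadherins, and Fas2 and Fas3 for the fasciclins. Of these, 8 were found among the 13776 genes of the deposited tables by matching FlyBase identifiers to symbols. The identifier paired with ds, the gene of Dachsous, is not among them, and ds is not analysed here. The genes were chosen with their counts and TPM values in the control and knockdown libraries known, so differences between the groups in these genes are given as a description with no test.

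The series covers Drosophila melanogaster ovaries from females aged 0 to 4 days, with 4 RNA-seq libraries (2 controls and 2 HP1a knockdowns) and 4 DamID samples not used here. Control females were F1 progeny of tj-Gal4 crossed to the VDRC line #60000, and knockdown females were F1 progeny of tj-Gal4 crossed to an HP1a RNAi line. Both groups therefore carry tj-Gal4, which drives expression in somatic cells of the ovary from the traffic jam locus, and they differ in the line it was crossed to, so that the effects of RNAi and of line background cannot be told apart. Each library was poly(A)+ RNA of about 100 whole ovaries read as 50 nt single-end reads, and germline and somatic RNA were measured as 1 pool.

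Classical cadherins bind their like on the neighbouring cell through calcium-dependent extracellular repeats, and their tails bind β-catenin (arm in flies), which is tied to actin through α-catenin. E-cadherin, made by shg, anchors germline stem cells to the niche and places the oocyte at the posterior of the egg chamber. Fasciclins 2 and 3 are adhesion proteins of the immunoglobulin type on the lateral membranes of follicle cells, and Fas3 is widely used as a marker of early follicle cells and polar cells.

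Deposited expected counts summed to between 18671653 and 38330979 per library. The gene of HP1a, Su(var)205, stood at 253 and 229 CPM in the control pair and 224 and 236 CPM in the knockdown pair, where CPM is counts per 1000000 after scaling by the trimmed mean of M values (TMM) and each pair of values gives library 1 first. Its log2 fold change, knockdown minus control, was -0.06 (SE 0.11, edgeR adjusted p = 0.677), so no loss of the targeted transcript was detectable in whole-ovary RNA. The libraries labelled knockdown are called so after their labels alone, in every direction given here. Of 8798 tested genes, 11.8% were called higher and 16.1% lower, 27.9% in all, at an adjusted p of 0.05. In these bulk samples fewer cells of a type and less RNA per cell cannot be told apart.

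Markers of the follicle cells, in which tj-Gal4 is active, were lower in the knockdown libraries. Over the 9 of 10 listed follicle cell markers found in the tables, tj among them, summed CPM was 1291 and 1122 in the control pair and 580 and 685 in the knockdown libraries, with 7 of 9 called lower. The tj transcript itself stood at 244 and 168 CPM in the control pair and at 9.92 and 25.9 CPM in the knockdown libraries. Late follicle cell and eggshell markers, all 18 of which were found, summed to 10492 and 37092 CPM in the control pair and to 1371 and 9451 CPM in the knockdown pair, with 1 of 18 called lower. The 12 markers of the somatic niche of the germarium summed to 565 and 552 CPM in the control pair and to 689 and 637 CPM in the knockdown pair, while 4 of the 10 tested were called lower and 0 higher. The 11 germline markers found of 13 summed to 6426 and 5693 CPM in the control pair and to 5003 and 5129 CPM in the knockdown libraries, with 4 called higher and 2 lower. Median log2 fold changes of the tested markers were -3.51 for follicle cells and -1.42 for late follicle cells and eggshell. They were -1.50 for the niche and -0.09 for the germline. A sum is weighted by its most abundant markers, so sum and median can part. They did so in direction for the niche, and in size for the follicle cells, whose sum fell by less than their median. The part of these cell populations in the values below was not tested.

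Among the 6 members with enough counts to be tested, 3 lay among the genes called lower (background 16.1%) and 0 among those called higher (background 11.8%), with 27.9% of all tested genes called in either direction. Since the same contrast was in view when the members were chosen, nothing is read from this count. CadN, Cad99C and Fas2 were the 3 lower ones, with groups that did not overlap, as was the case for 77.0% of all tested genes. The groups overlapped for shg, Fas3 and Cad74A.

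**Figure D1:**
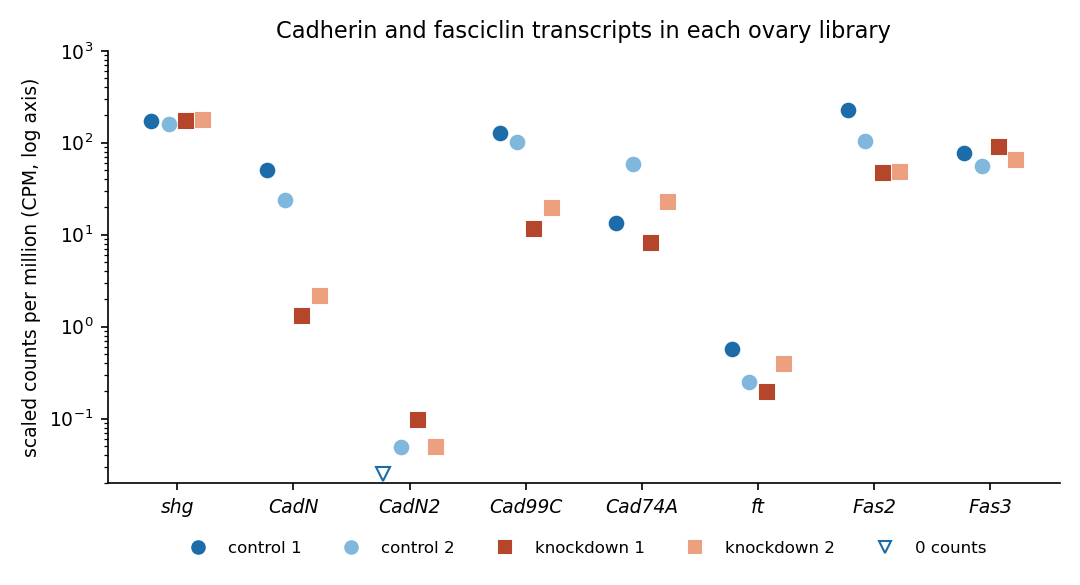
Scaled CPM on a log axis for the 8 measured genes, with 1 point per library, circles for controls and squares for knockdown libraries. CadN, Cad99C and Fas2 lie lower in both knockdown libraries than in either control, shg and Fas3 overlap, and the open triangle marks the library in which CadN2 had 0 counts.

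E-cadherin RNA was close to level across the 4 libraries. The shg transcript stood at 174 and 162 CPM in the control pair and 172 and 179 CPM in the knockdown pair. Group means were 168 ± 8.8 CPM (SD, n = 2) and 175 ± 5.11 CPM (SD, n = 2), a log2 fold change of 0.06. The knockdown values lay on either side of control 1, and the ranges overlapped. On the deposited TPM scale, which divides by transcript length and sets each library to the same sum, shg was at 26.4 and 25.2 in the control pair and at 38.8 and 39.0 in the knockdown libraries, and those ranges did not overlap. On the log2(TPM + 1) scale the shg difference was 0.57 and the median difference of all tested genes was 0.50, so shg differed from that median by 0.07. Against the median of all tested genes, shg lay between -0.01 and 0.11 under every scale, filter, tool and left-out library tried.

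N-cadherin RNA was the member with the widest gap between the groups. CadN had 973 and 481 counts in the control pair and 27 and 87 counts in the knockdown pair. In scaled counts this was 51.2 and 23.9 CPM against 1.31 and 2.14 CPM. Both knockdown libraries lay more than a factor of 10 under the lower control, and the controls differed from each other by a factor of 2.14. Group means were 37.5 ± 19.3 CPM (SD, n = 2) and 1.72 ± 0.586 CPM (SD, n = 2), and the fitted difference was 21.2-fold (log2 fold change -4.41). It ran from -4.82 to -3.76 with 1 library left out, and was -1.72 on log2(TPM + 1), a scale on which a pseudocount of 1 lies above the knockdown TPM values of 0.173 and 0.267.

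Markers of neurons, in which N-cadherin is abundant, summed to 43.0 and 36.8 CPM in the control pair and 31.7 and 33.9 CPM in the knockdown pair, with 1 of 5 tested called lower and 7 of 9 listed found. Their part in CadN was not tested.

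CadN2, which encodes a close relative of N-cadherin, lies beside CadN on 2L with no tested gene between them in the Release 6 gene order. It was at the floor of detection, with 0 and 1 counts in the control pair and 2 and 2 counts in the knockdown libraries. The 0 counts in control 1 allow up to 0.158 CPM (3 counts). The knockdown to control ratio of CadN2 was 2.55 with an exact 95% counting interval of 0.252 to 126, which covers counting error only, so that no difference was detectable at this depth in either direction. CadN2 did not pass the filter on low counts and was not tested.

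The ratio of E-cadherin to N-cadherin RNA per length differed widely between the groups. The TPM ratio of shg over CadN was 6.09 and 12.5 in the control pair, and 224 and 146 in the knockdown pair. The ratios of the groups did not overlap, but with shg close to level in CPM they mostly restate the CadN difference. The knockdown ratios rest on 27 and 87 CadN counts.

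Cad99C encodes a protocadherin of follicle cell microvilli that is needed for a normal vitelline membrane. It stood at 128 and 101 CPM in the control pair and 11.4 and 19.6 CPM in the knockdown pair. Both knockdown libraries were far under both controls, and knockdown 1 was the lowest. Group means were 115 ± 19.2 CPM (SD, n = 2) and 15.5 ± 5.81 CPM (SD, n = 2), a fitted difference of 7.36-fold (log2 fold change -2.88). The value stayed between -3.31 and -2.53 with 1 library left out.

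Cad74A, a cadherin of the columnar follicle cells with a role in dorsal appendage formation, followed the library number more than the group. It stood at 13.3 and 59.3 CPM in the control pair and 8.18 and 22.9 CPM in the knockdown pair. Library 2 was higher than library 1 in each group, 4.46-fold in the controls and 2.80-fold in the knockdowns, and the ranges of the groups overlapped. The eggshell markers were also higher in library 2 of each group, at the summed values given above, and their part in Cad74A was not tested. Group means were 36.3 ± 32.5 CPM (SD, n = 2) and 15.5 ± 10.4 CPM (SD, n = 2). The fitted log2 fold change of -1.21 turned to 0.28 without control 2 and ran to -2.14 without knockdown 2.

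The giant cadherin Fat, made by ft, acts with Dachsous in planar polarity and in Hippo growth control. Its transcript was nearly absent, with 11 and 5 counts in the control pair and 4 and 16 counts in the knockdown pair. In CPM the values were 0.579 and 0.248 against 0.194 and 0.393, and the ranges overlapped. The knockdown to control ratio was 0.797 with an exact 95% counting interval of 0.392 to 1.65, and ft did not pass the filter on low counts. The inferred effective length of the ft transcript, 16603 nt, is the longest among the members, so that these few reads come from the largest target.

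Fasciclin 2, related to the vertebrate adhesion molecule NCAM, was lower in both knockdown libraries, and the controls differed from each other. Fas2 stood at 226 and 106 CPM in the control pair and 47.3 and 47.7 CPM in the knockdown pair. The knockdown libraries lay within 1 CPM of each other, at less than the lower control. Group means were 166 ± 85.0 CPM (SD, n = 2) and 47.5 ± 0.311 CPM (SD, n = 2), a fitted difference of 3.49-fold (log2 fold change -1.80). Markers of the muscle sheath, 14 of 15 of which were found, summed to 3132 and 1750 CPM in the control pair and 1741 and 1547 CPM in the knockdown pair, with 3 of 13 tested called lower, and their part in Fas2 was not tested. Without control 1 the log2 fold change was -1.15 and without control 2 it was -2.21. Without knockdown 1 it was -1.77, without knockdown 2 it was -1.79, and on log2(TPM + 1) it was -1.04.

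Fasciclin 3 RNA overlapped between the groups in CPM and not in TPM, as was the case for E-cadherin. Fas3 stood at 76.7 and 55.5 CPM in the control pair and 89.99 and 64.99 CPM in the knockdown pair. Library 1 was higher than library 2 by a factor of 1.38 in both groups, and the groups overlapped. In TPM, Fas3 was at 29.0 and 21.4 for the controls against 49.2 and 34.2 for the knockdowns, and both knockdown values were the higher ones. Group means were 66.1 ± 14.99 CPM (SD, n = 2) and 77.5 ± 17.7 CPM (SD, n = 2), with a log2 fold change of 0.23. It ran from -0.003 to 0.48 with 1 library left out. The 4 polar cell markers, of which Fas3 is 1, summed to 135 and 108 CPM in the control pair and 175 and 145 CPM in the knockdown pair, a sum that holds the Fas3 values above, with 1 called higher and 1 lower. The TPM ratio of Fas2 over Fas3 was 1.91 and 1.24 in the control pair and 0.374 and 0.520 in the knockdown libraries, above 1 in both controls and below 1 in both knockdown libraries.

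The members were also set against the tj transcript. CadN per tj, as a ratio of CPM values, was 0.210 and 0.142 in the control pair and 0.132 and 0.0825 in the knockdown pair, with both knockdown libraries under both controls. Cad99C per tj was 0.527 and 0.602 in the control pair and 1.15 and 0.758 in the knockdown libraries, the other way round. Fas2 per tj was 0.927 and 0.629 against 4.77 and 1.84. Fas3 per tj was 0.315 and 0.330 against 9.07 and 2.51. Cad74A per tj was 0.0546 and 0.353 against 0.824 and 0.883, and shg per tj was 0.714 and 0.960 against 17.3 and 6.90. Of these 6 genes CadN alone had lower ratios in both knockdown libraries than in both controls, and the other 5 had higher ones. For CadN the gap was narrow, 0.142 in control 2 against 0.132 in knockdown 1, the latter from 27 CadN and 205 tj counts. The tj transcript was itself called lower (log2 fold change -3.51, SE 0.50), so a ratio rises for any member that fell less than tj. These are ratios between transcripts of a mixed tissue and do not place a transcript in a cell type.

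Per length, Fas2 had the highest control mean of the members, at 41.0 ± 20.5 TPM (SD, n = 2). Next came shg at 25.8 ± 0.812, Fas3 at 25.2 ± 5.35 and Cad99C at 19.9 ± 2.87. The ranges of Fas2 and shg were barely separate, with Fas2 at 26.45 TPM in control 2 and shg at 26.39 TPM in control 1. Since the Fas2 controls differed widely, Fas2 is not ranked above shg here. The ranges of shg and Fas3, and of Fas3 and Cad99C, overlapped. Cad74A (5.53 ± 5.03 TPM) and CadN (3.18 ± 1.64 TPM) followed and overlapped with each other. In the knockdown libraries the order was Fas3 at 41.7 ± 10.6 TPM and shg at 38.9 ± 0.144 TPM, which overlapped, then Fas2 at 18.1 ± 0.433, Cad99C at 3.84 ± 1.34, Cad74A at 3.34 ± 2.16 and CadN at 0.220 ± 0.0664. The knockdown ranges of Cad99C and Cad74A overlapped as well. In both groups ft and CadN2 came last, at under 0.05 TPM. The summed TPM of the 8 genes was 139 and 102 in the control pair and 111 and 101 in the knockdown libraries, so that the sum overlapped between the groups, as did the share of Cad74A in it. Both shg and Fas3 took a larger share of that sum in the knockdown libraries than in either control. Of the sum, shg made up 19.0% and 24.7% against 34.8% and 38.6%, and Fas3 made up 20.8% and 21.0% against 44.2% and 33.9%. Fas2 took 39.9% and 25.9% against 16.5% and 17.6%, a smaller share in both knockdown libraries. Shares add up to a whole, so the smaller shares of Fas2 and Cad99C by themselves leave larger ones to the other members.

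**Figure D2:**
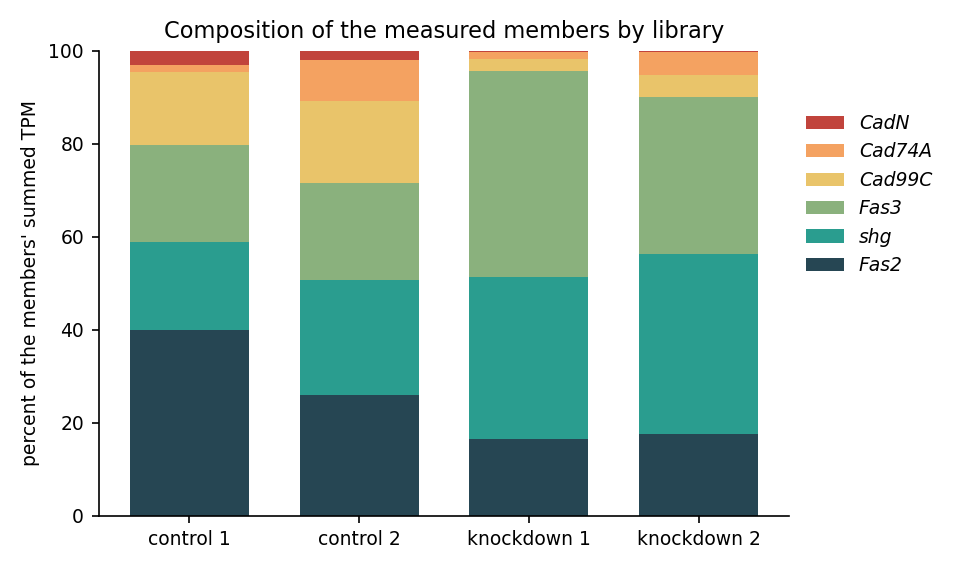
Percent of the members' summed TPM taken by each of the 6 most abundant genes, with 1 bar per library and bars starting at 0. The shg and Fas3 shares are larger in both knockdown libraries, and the Fas2, Cad99C and CadN shares are smaller.

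Members with several transcripts also differed slightly between the groups in which transcripts the authors' quantification assigned reads to. Dividing counts by TPM gives the mean effective transcript length of a gene in each library. For Fas2 it was 3802 and 3842 nt in the control pair and 3572 and 3597 nt in the knockdown pair, 6.21% shorter in the knockdowns. For CadN it was 11009 and 11340 nt against 10502 and 10728 nt, but the knockdown values rest on 27 and 87 counts. For Fas3 it was 2469 and 2491 nt against 2544 and 2549 nt, 2.66% longer. For Cad99C and Cad74A the difference was under 1%. None of the 5 overlapped between the groups, which was also the case for 63.8% of 4089 genes with more than 1 length, so the lack of overlap says little. The difference in Fas2 was larger than that of 88.5% of those genes. For shg, with 1 length in the tables, no such value can be had.

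**Figure D3:**
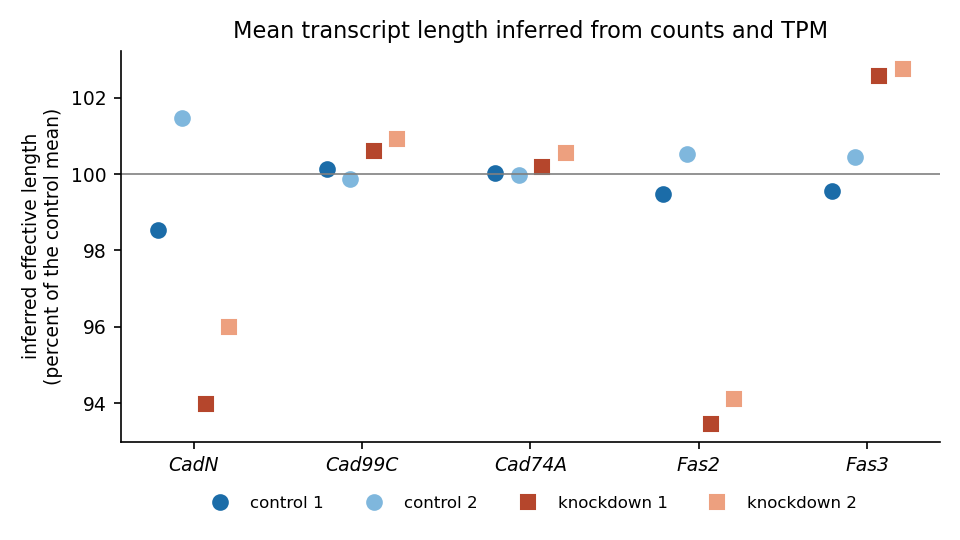
Mean effective transcript length inferred from counts and TPM, as a percent of the control mean, for the 5 tested members with more than 1 length, with 1 point per library and an axis that does not start at 0. Fas2 lies at about 94% in both knockdown libraries and Fas3 at nearly 103%.

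The direction of each tested member was followed through other scales, filters and tools. CadN, Cad99C and Fas2 stayed negative in all 13 of those settings and in the 4 fits with 1 library left out. Their groups did not overlap, so leaving out 1 library could hardly turn a sign. All settings reuse the same 4 libraries, and nothing further is read from these directions. Calls were less steady than directions. With limma-trend on log2(TPM + 1) and log2(TPM + 0.1), Fas2 was not called, and shg lay among the 4406 and 4377 genes called higher. Fas2 was also not called without knockdown 1 or without knockdown 2. With the replicate number as a block, Cad74A lay among the 1879 genes called lower. The log2 fold change of shg ran from -0.04 with upper quartile scaling to 0.59 on log2(TPM + 0.1), and that of Fas3 from 0.13 to 0.72. The median of all tested genes moved with the scale as well, to -0.08 with upper quartile scaling, to 0.25 with library size alone, to 0.27 with germline scaling and to 0.56 on log2(TPM + 0.1), against 0.02 with TMM. Relative to that median, Fas3 lay between 0.16 and 0.35 in those settings.

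**Figure D4:**
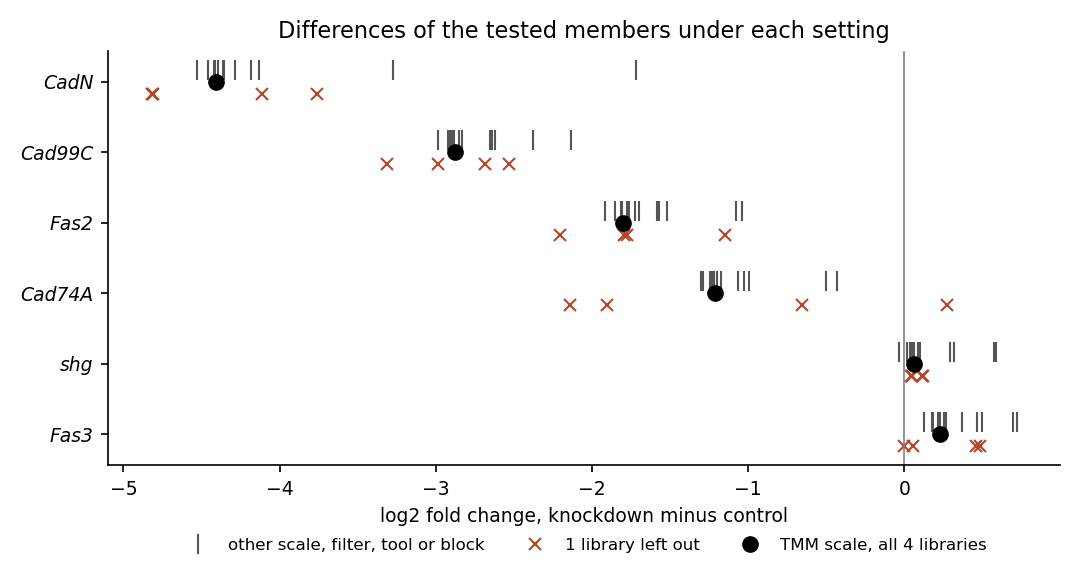
Log2 fold change, knockdown minus control, of the 6 tested members, with a black point for the TMM scale, grey ticks for the 13 other settings and red crosses for fits with 1 library left out. CadN, Cad99C and Fas2 stay left of 0, shg and Fas3 lie near it, and Cad74A crosses it when control 2 is left out.

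The remaining cadherin genes, listed by family, were compared in the same fit. Of 10 listed, 6 were tested, and 1 fell, 0 rose and 5 did not pass, with a median log2 fold change of 0.06 against 0.02 for all tested genes. That is 0% higher and 16.7% lower, against 11.8% and 16.1% of all tested genes. At an unadjusted p of 0.05 edgeR gave 0 higher and 2 lower, where 48.1% of all tested genes passed. At an adjusted p of 0.05 DESeq2 gave 0 higher and 2 lower, and limma-trend on log2(TPM + 1) gave 2 higher and 1 lower. Over all genes, DESeq2 called 1688 higher and 1630 lower of 12137, and limma-trend called 4406 higher and 664 lower of 8798. The 12137 genes include some without an adjusted p, such as CadN2 and ft, that could not be called. Cad86C fell from 33.7 and 20.6 CPM in the controls to 1.45 and 3.22 CPM in the knockdown libraries (log2 fold change -3.50, SE 0.47, edgeR adjusted p = 0.0219), and the call was made without each library in turn. Cad88C (log2 fold change -1.72, SE 0.60, adjusted p = 0.0792) did not pass with edgeR but did with DESeq2 (adjusted p = 0.0133). Cals, the calsyntenin gene, was at 0.35 and did not pass, nor did Cad87A at 0.27. The same was true of kug (log2 fold change -0.14, SE 0.15, adjusted p = 0.508), which encodes the Fat2 protein that drives rotation of the egg chamber.

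Proteins that bind classical cadherins or stabilise adherens junctions were tested in full. All 13 of the list were tested, and 1 rose, 1 fell and 11 did not pass, with a median of 0.08. This is 7.69% in each direction, under the 11.8% and 16.1% of all tested genes. The β-catenin gene arm, named after its values were seen, stood at 544 and 557 CPM in the control pair and at 590 and 577 CPM in the knockdown libraries (log2 fold change 0.08, SE 0.12, adjusted p = 0.620). The p120 catenin gene p120ctn, whose product binds the cadherin tail near the membrane, rose from 69.6 and 97.4 CPM to 132 and 138 CPM (log2 fold change 0.69, SE 0.18, adjusted p = 0.0473). The ZO-1 gene pyd fell from 429 and 398 CPM to 292 and 306 CPM (log2 fold change -0.47, SE 0.12, adjusted p = 0.0426). Neither p120ctn nor pyd passed without knockdown 1 or without knockdown 2. The pyd call was also lost with library size alone (-0.23, adjusted p = 0.147), with germline scaling (-0.21, adjusted p = 0.207) and with no filter (adjusted p = 0.0716), and on log2(TPM + 1) pyd turned to 0.09, below the median of all genes. The p120ctn call was lost with germline scaling (adjusted p = 0.0541) and with deposited lengths as an offset (adjusted p = 0.0545). The vinculin gene Vinc (0.36), alpha-Cat (0.33) and PDZ-GEF (0.32), whose product activates Rap1, did not pass.

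Of 17 genes around Fat, Dachsous and the Hippo kinase cascade, 16 were tested, and 1 rose, 3 fell and 12 did not pass, with a median of -0.05. These shares, 6.25% higher and 18.75% lower, compare with 11.8% and 16.1% of all tested genes. The Hippo kinase gene hpo rose from 53.6 and 59.8 CPM to 84.5 and 90.2 CPM (log2 fold change 0.62, SE 0.12, adjusted p = 0.0289). The upstream activators ex and kibra fell, by log2 fold changes of -0.91 (SE 0.21, adjusted p = 0.0372) and -0.51 (SE 0.12, adjusted p = 0.0358), as did sd, the DNA-binding partner of Yorkie (-0.67, SE 0.15, adjusted p = 0.0331). The scaffold gene sav did not pass (0.46, adjusted p = 0.0625). None of the 4 calls was made without knockdown 1 or without knockdown 2. With library size alone and with germline scaling the 3 falls were no longer called, nor were sd and ex with deposited lengths as an offset or kibra with no filter. On log2(TPM + 1) none of the 3 was called and kibra turned to 0.10.

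Other cell adhesion molecules went both ways. Of 25 listed, 19 were tested, and 5 rose, 3 fell and 11 did not pass, with a median of 0.01. That is 26.3% higher and 15.8% lower, against 11.8% and 16.1% of all tested genes. The immunoglobulin-domain genes bdl and tutl fell, bdl from 31.5 and 24.1 CPM to 6.24 and 5.13 CPM (log2 fold change -2.29, SE 0.23, adjusted p = 0.0217) and tutl from 40.9 and 22.8 CPM to 5.57 and 4.54 CPM (log2 fold change -2.66, SE 0.34, adjusted p = 0.0218). Both were called without each library in turn. The septate junction gene Lac rose from 54.0 and 76.4 CPM to 170 and 138 CPM (log2 fold change 1.24, SE 0.21, adjusted p = 0.0247), the receptor gene Tl rose by 1.08 and the teneurin gene Ten-m by 0.85. Named after their values were seen, Cont, another septate junction gene, rose by 0.92 and Nrt by 0.97, and mfas, which carries fasciclin I domains unrelated to Fas2 and Fas3, was lower by a log2 fold change of -0.77. Calls for Tl, Ten-m, Cont, Nrt and mfas were not made without knockdown 1 or without knockdown 2, and that for Lac was not made without knockdown 1. Germline scaling and the offset from deposited lengths ended the calls for Nrt and mfas, and library size alone and log2(TPM + 1) ended that for mfas.

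Genes of integrin adhesion, which ties cells to the basement membrane, had 1 rise, 1 fall and 9 that did not pass among the 11 tested of 13, with a median of 0.29. This is 9.09% in each direction, under the shares of all tested genes. The αPS1 integrin gene mew fell from 69.1 and 50.9 CPM to 22.9 and 20.9 CPM (log2 fold change -1.45, SE 0.19, adjusted p = 0.0218). The β integrin gene Itgbn rose from 2.42 and 1.69 CPM to 16.8 and 9.79 CPM (log2 fold change 2.69, SE 0.41, adjusted p = 0.0233). The call for mew was not made without knockdown 2, and that for Itgbn was not made without knockdown 1. Summed CPM of the 8 listed hemocyte markers was also higher in both knockdown libraries, at 198 and 248 in the control pair against 376 and 357. Within the controls Itgbn was higher in library 1 and the marker sum in library 2. In the knockdown pair both were higher in library 1. Of these markers 2 of 7 tested rose, and He was at 0 in all libraries. Their part in Itgbn was not tested. The linker genes parvin (0.46) and Ilk (0.38) and the αPS2 gene if (-0.71) did not pass.

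**Figure D5:**
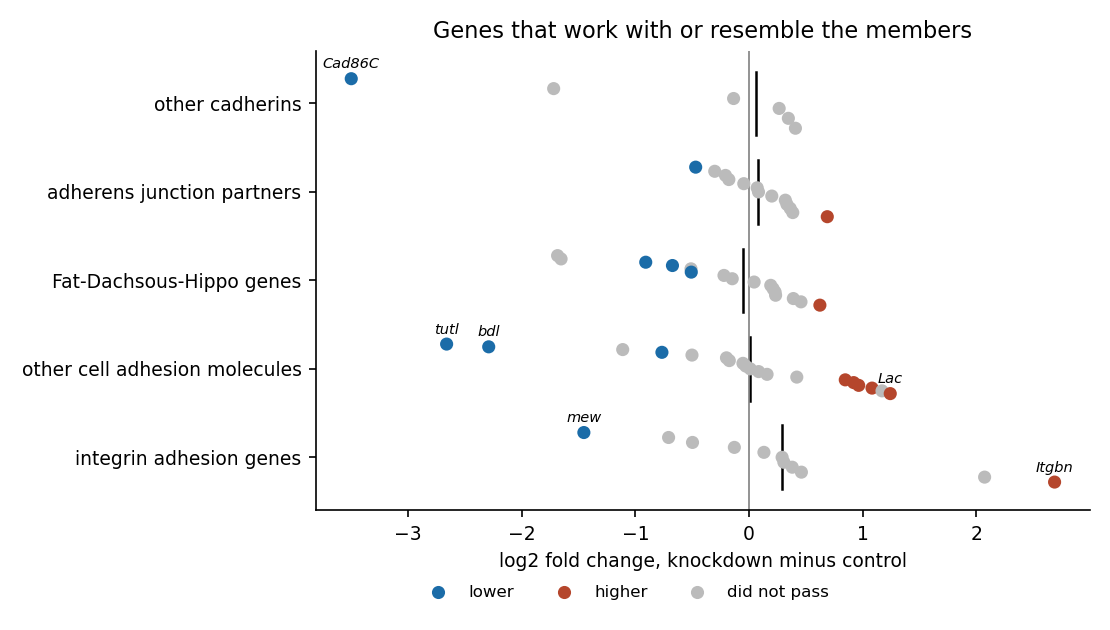
Log2 fold change, knockdown minus control, of each tested gene in the 5 lists around the members, coloured by whether edgeR called it lower or higher or it did not pass, with a black bar at each list median. Called genes with a change over 1.2 in size are named, and the list medians lie between -0.05 and 0.29.

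Over the 65 tested genes of the 5 lists, 17 (26.2%) were called in the fit with all libraries, near the 27.9% of all tested genes, and Cad86C, bdl and tutl were the 3 called without each library in turn. With control 2 left out more of these genes were called: 6 adherens junction genes rose in place of 1, and 5 Fat-Dachsous-Hippo genes in place of 1. In the same fit the genes called higher among all those tested went from 1040 to 2540.

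The genes beside the members in the Release 6 gene order were looked up, with the 3 nearest tested genes on each side. Of 42 such genes that are not members, 4 rose (9.52%) and 10 fell (23.8%), against 11.8% and 16.1% of all tested genes, with a median log2 fold change of 0.02. Around CadN and CadN2 the dynein heavy chain gene Dhc36C fell from 34.8 and 32.2 CPM to 8.08 and 8.32 CPM (log2 fold change -2.03, SE 0.15, adjusted p = 0.0217), and CG15143 and rdo fell from levels under 2 CPM. Beside ft, tutl and the ribosomal protein gene RpL40 (-0.89) fell, and beside Fas3, CG10283 (-2.46) and RpS26 (-1.06) fell, as did CG42750 from levels under 2 CPM. Beside Cad74A, CG6479 (1.11), blot (0.69) and CG7692 (0.58) rose and Afg3l2 (-0.71) fell. The remaining calls were ND-B14.7 (-0.81), beside shg, and GlcAT-I (0.77), beside Fas2, while none of the 6 neighbours of Cad99C passed. Of these 14 calls, those for Dhc36C, CG10283 and tutl were made without each library in turn. CG15143 was called in 0 of the 4 such fits and rdo in 1, and the other 9 were not called without knockdown 1 or without knockdown 2. The sources used here do not say whether counting used strand, so that reads of genes that overlap a member cannot be told apart.

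Genes with the most alike profiles over the 4 libraries were found by the root mean square distance between log2 CPM values, each centred on its own mean, among genes with a mean of at least 50 counts. The closest to CadN were CG15822 (distance 0.10), CG42566 (0.11), GstE14 (0.13) and Oat (0.17). The closest to Cad99C were haf (0.06), ko (0.09), metro (0.12) and kar (0.13). The closest to Fas2 were scf (0.03), Dh44-R2 (0.05), CG1136 (0.05) and a gene with no symbol in the tables, FBgn0038341 (0.07). The closest to Fas3 were Syx4 (0.04), CalpA (0.04), CG32817 (0.05) and RhoL (0.05), all of which overlapped between the groups as Fas3 did. With 4 libraries and 7561 genes searched many profiles lie close, and these names are a description. Levels per library show the likeness: scf stood at 193, 95.4, 40.9 and 41.8 CPM in control 1, control 2, knockdown 1 and knockdown 2, as Fas2 did at 226, 106, 47.3 and 47.7 CPM.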

How the data were processed

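Poly(A)+ RNA of 4 ovary libraries was analysed. Tools named in the submitters' processing notes are HTSeq, HISAT2, Salmon and DESeq2, with builds BDGP5 and dm3, but their roles and versions are not given in the sources used here. The deposited gene tables hold expected counts, not normalized, and TPM values summing to 1000000 per library. The deposited length columns were too short for genes with several transcripts, by a median factor of 1.80 for genes with 2 RefSeq transcripts and 7.21 for those with over 10, while counts and TPM were mutually exact for single-transcript genes. Effective lengths were therefore inferred as counts over TPM, scaled on 2327 single-transcript genes. Those compared had at least 20 counts in each library and lengths that differed between libraries by a factor over 1.001.

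Expected counts were rounded and tested in R 4.3.3 with edgeR 4.0.16 (filterByExpr, TMM, quasi-likelihood F test without a block, Benjamini-Hochberg over 8798 genes, threshold 0.05). The SE is the absolute log2 fold change over the square root of F. The fit had 2 residual degrees of freedom and a biological coefficient of variation of 0.245. The labels call the libraries biological replicates but do not mention separate crosses. The p-values thus set the group difference against the spread between these samples, which may leave out spread between crosses. DESeq2 1.42.0 and limma 3.58.1 were alternatives, and code was tested on simulated data. Intervals and floors (3 counts) cover counting error only.

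Members and lists were chosen with earlier results of these data known. Named were all members, up to 5 genes per list with the smallest adjusted p, called neighbours and the 4 most alike profiles (log2 of CPM + 0.5) of CadN, Cad99C, Fas2 and Fas3. Of the tables' identifiers, 13483 had a symbol. Listed genes that could not be matched (Fas1, hbs, 18w, scb, d among the partners) were left out. Symbols and gene order came from RefSeq Release 6, with dm3 domains not used.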

Additional observations from a re-analysis of the deposited data

How the results depend on the processing

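The number of genes called rested on the scale and on single libraries. Against 1040 higher and 1415 lower, library size alone gave 2576 higher, germline scaling 725 lower, DESeq2 1688 higher, limma-trend on log2(TPM + 1) 4406 higher and 664 lower, and on log2(TPM + 0.1) 4377 higher and 669 lower. Genes higher made up 42.4% of calls with TMM, 71.2% with library size alone, 55.7% with germline scaling, 50.9% with DESeq2 and 86.9% with limma-trend on log2(TPM + 1). With 1 library left out the counts ran from 29 to 2540 higher and from 191 to 2003 lower, lowest without knockdown 1. In such a fit 1 group holds a single library that is assumed to vary like the other group. With the replicate number as a block, 1834 were higher and 1879 lower, and among the named partner genes Cad88C and if were called lower and sav and parvin higher. The deviations of libraries with the same number correlated at r = 0.54 across genes, but only 2 pairs exist and the labels name no shared batch.

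Of the genes named, pyd turned to 0.086 and 0.0873 and kibra to 0.0968 and 0.10 on log2(TPM + 1) and log2(TPM + 0.1), and Su(var)205 to 0.459 and 0.46, where the medians of all genes were 0.50 and 0.56. The offset from inferred lengths, chosen after seeing the data, left 1006 higher and 1405 lower. Depth limits CadN2 and ft, whose largest count in a library was 16.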
